A study of Mus musculus with 17 samples.

Results

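Of 55421 genes counted in colonic tumors of mice with intact or deleted Tyk2, 10 genes of inflammatory cell death are described here. They were chosen by symbol as the rows whose Ensembl identifiers map to Nlrp3, Nlrc4, Pycard, Casp1, Casp4, Gsdmd, Casp8, Ripk1, Ripk3 and Mlkl, and each symbol matched 1 identifier. All 10 passed the low-count filter in every comparison. In tumors lacking Tyk2 in all cells, Casp4, Mlkl, Casp1 and Casp8 were lower than in wild-type tumors and none of the 10 was higher. In tumors lacking Tyk2 in the epithelium alone, Casp1 was higher than in floxed control tumors and no other gene of the 10 passed the test. Of all genes tested, 2.80% passed with loss in all cells and 19.9% with loss in the epithelium. Only the lower level of Casp4 passed under every other setting tried, and that of Casp8 failed in most of them.

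RNA was sequenced from tumors that had been induced with azoxymethane (AOM), a mutagen, and dextran sulfate sodium (DSS), which damages the colonic lining and inflames it. Tyk2 is a Janus kinase that acts below the receptors for type I interferons, IL-12, IL-23 and IL-22, among others. The design asks what its loss changes when it is lost everywhere or only in the epithelium. All 17 libraries came from AOM/DSS tumors of mice kept on a C57BL/6 background, whose ages are not given in the sources used here. No untreated colon was analysed here, so the levels below are levels within tumors.

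The Tyk2KO group (3 libraries) carries a germline deletion, which goes back to floxed mice in which CMV-cre, active in the germline, removed the floxed part. The cre itself is no longer carried. Its control is Tyk2wt (3 libraries), wild-type mice from crosses of heterozygous parents. In the Tyk2DIEC group (4 libraries) both Tyk2 alleles are floxed and a Villin-cre transgene deletes them in intestinal epithelial cells, so that immune cells, fibroblasts and muscle of the tumor keep Tyk2. Tyk2fl (7 libraries) holds mice with the same floxed alleles and no cre. The labels speak of single tumors and the study's figure legend of pooled ones, and neither ties a library to a mouse, so the p-values below measure the spread between these libraries, which may be technical. A tumor is a mixture of cells, in which fewer cells of a type and less RNA per cell cannot be told apart.

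Counts on genes totalled 19922606 to 21707373 per Tyk2KO library and 19789347 to 21318077 per Tyk2wt library. They were 19129696 to 20334948 in Tyk2DIEC and 29777763 to 35427965 in Tyk2fl libraries, which were therefore deeper. Tyk2 itself had 1177 to 1257 counts in Tyk2KO against 1092 to 1199 in Tyk2wt libraries, and 1020 to 1113 in Tyk2DIEC against 1359 to 1943 in Tyk2fl libraries. The deleted part is exon 3, and a sum over the whole gene does not check the genotype. Xist had 40656 to 45446 counts in Tyk2fl replicates 1 to 3 and at most 106 in the other 14 libraries. Levels are given as CPM, a gene's counts relative to a fixed library total, after 1 scaling of all 17 libraries with TMM (trimmed mean of M values). Summed over 8 epithelial markers, the level was 8945 to 9538 CPM in Tyk2KO, 8238 to 10040 CPM in Tyk2wt, 7823 to 10320 CPM in Tyk2DIEC and 6940 to 11290 CPM in Tyk2fl libraries.

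Pyroptosis is a lytic death that starts when a sensor such as NLRP3 or NLRC4 assembles an inflammasome, often through the adaptor ASC (Pycard), and activates caspase-1, while mouse caspase-11, the product of Casp4, is activated by cytosolic lipopolysaccharide. Both caspases cut gasdermin D, whose free part makes pores in the plasma membrane, and caspase-1 also matures IL-1β and IL-18. Necroptosis is another lytic death, in which RIPK1 or ZBP1 activates RIPK3 and RIPK3 phosphorylates MLKL, and caspase-8 holds it in check by cutting the kinases. In the intestinal epithelium caspase-8 is known for preventing necroptosis, and the inflammasomes for defence against bacteria. RNA levels show neither the cleavage of a caspase or gasdermin nor the phosphorylation of a kinase.

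Divided by the length of a gene's merged exons, the level in CPM can be compared between genes. On that scale Gsdmd was the most abundant of the 10 in every genotype, with 75.4 ± 4.06 CPM per kb in Tyk2KO, 89.1 ± 19.2 in Tyk2wt, 78.1 ± 10.2 in Tyk2DIEC and 73.5 ± 16.6 in Tyk2fl tumors (mean ± SD, n = 3, 3, 4 and 7). Casp8 and Casp1 came next. In Tyk2KO tumors Casp8 was at 49.0 ± 2.80 and Casp1 at 48.6 ± 3.62 CPM per kb, and in Tyk2wt tumors Casp1 was at 65.1 ± 4.19 and Casp8 at 60.3 ± 0.798 CPM per kb, so that the pair overlapped within their SDs in both. Nlrp3 was the lowest in every genotype, at 0.801 ± 0.191 CPM per kb in Tyk2KO, 1.00 ± 0.157 in Tyk2wt, 1.01 ± 0.128 in Tyk2DIEC and 0.857 ± 0.315 in Tyk2fl tumors.

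The genes between them kept much the same order. In Tyk2wt tumors it ran from Ripk3 (23.4 ± 2.52 CPM per kb) through Pycard (22.01 ± 2.07), Mlkl (19.5 ± 2.36), Nlrc4 (14.7 ± 1.30) and Casp4 (13.1 ± 1.12) to Ripk1 (8.25 ± 0.404). Ripk3 and Pycard, Pycard and Mlkl, and Nlrc4 and Casp4 did not differ there beyond their SDs. Casp4 was the eighth of the 10 in Tyk2wt tumors. In the other genotypes it was the ninth, below Ripk1, with 4.91 ± 1.37 CPM per kb in Tyk2KO, 6.28 ± 1.69 in Tyk2DIEC and 6.22 ± 1.52 in Tyk2fl tumors. Mlkl stood above Nlrc4 in Tyk2wt tumors and below it in Tyk2KO tumors, at 12.1 ± 0.703 CPM per kb for Mlkl and 15.2 ± 0.199 for Nlrc4. The lengths come from 1 set of gene models and take no account of which transcript is used.

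**Figure D1:**
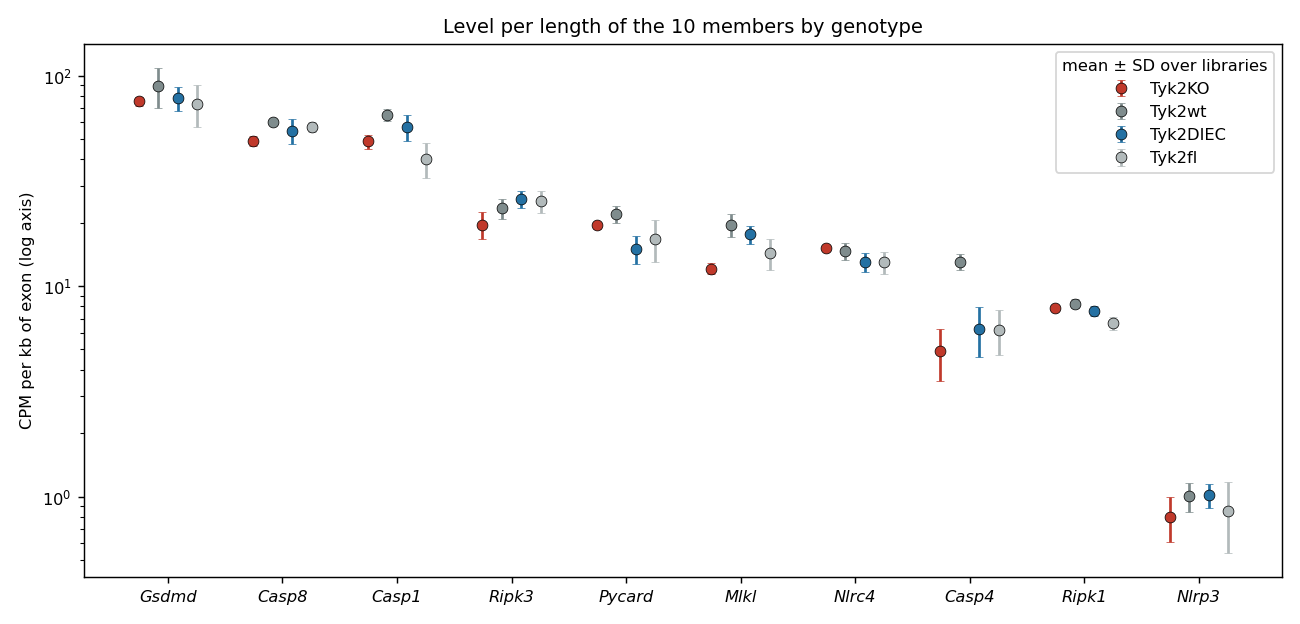
Level per length of the 10 genes in CPM per kb of exon (log axis), as mean ± SD over the libraries of Tyk2KO (n = 3), Tyk2wt (n = 3), Tyk2DIEC (n = 4) and Tyk2fl (n = 7) tumors. Gsdmd is the highest and Nlrp3 the lowest in each genotype, and Casp4 stands apart in Tyk2wt at 13.1 CPM per kb, against 4.91 to 6.28 in the other 3.

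In Tyk2KO tumors 4 of the 10 genes were lower than in Tyk2wt tumors and none was higher (edgeR quasi-likelihood test, adjusted p under 0.05). Across all 16179 genes tested 2.80% were called, 2.13% as lower and 0.668% as higher. The median log2 fold change of the 10 was -0.28, beside 0.004 over all genes tested. The genes called were 3 caspases and the executioner of necroptosis. Neither sensor, nor the adaptor Pycard, nor Gsdmd, nor either RIP kinase passed the test.

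Nlrp3, the sensor that responds to potassium efflux and other signs of membrane damage, had only 51, 73 and 80 counts in Tyk2KO and 100, 74 and 75 counts in Tyk2wt libraries. Its levels of 2.36, 3.62 and 3.76 CPM in Tyk2KO and 4.79, 3.80 and 3.61 CPM in Tyk2wt tumors overlapped, with a log2 fold change of -0.33 (standard error (SE) 0.23, adjusted p = 0.429). Nlrc4, which with NAIP proteins senses bacterial flagellin and secretion systems, had 73.5, 73.4 and 71.8 CPM in Tyk2KO and 64.1, 70.6 and 76.7 CPM in Tyk2wt tumors. The Tyk2KO values lie inside the range of the Tyk2wt values, and the change was 0.04 (SE 0.072, adjusted p = 0.754). Pycard, the adaptor that links sensors to caspase-1, had 75.3, 75.4 and 70.8 CPM in Tyk2KO and 84.2, 75.5 and 91.2 CPM in Tyk2wt tumors. The groups touch without overlapping, and its change of -0.19 did not pass (SE 0.078, adjusted p = 0.207).

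Casp1, the caspase of the inflammasome, had 75.6, 66.5 and 76.2 CPM in Tyk2KO against 95.3, 92.5 and 104 CPM in Tyk2wt tumors. Every Tyk2KO library was below every Tyk2wt library, and the log2 fold change was -0.43 (SE 0.078, adjusted p = 0.0339), which leaves 0.744 of the level in Tyk2wt tumors. The call was lost in 6 of 14 other settings, the 2-fold minimum not counted. It did not pass without Tyk2KO replicate 1, 2 or 3 (adjusted p = 0.0782, 0.125 and 0.0522) or without Tyk2wt replicate 1 or 3 (0.0525 and 0.133), with changes of -0.46 to -0.36 over all libraries left out in turn. In a single fit of all 17 libraries its adjusted p was 0.221.

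Casp4, which encodes mouse caspase-11, changed most of the 10. It had 16.9, 13.9 and 23.8 CPM in Tyk2KO tumors, from 280 to 507 counts, against 49.1, 44.0 and 52.2 CPM in Tyk2wt tumors, from 857 to 1085 counts. Even the highest Tyk2KO library, replicate 3, lay well under the lowest Tyk2wt library. The log2 fold change was -1.41 (SE 0.18, adjusted p = 0.00885), or 0.375 of the level in Tyk2wt tumors, and Casp4 alone of the 10 also passed a 2-fold minimum, which 1.30% of all genes passed. It was called under each of 14 other settings, at adjusted p between 4.88e-12 and 0.041 and log2 fold changes between -1.65 and -1.25.

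Gsdmd, the pore-forming substrate of both caspases, had 190.3, 174 and 174 CPM in Tyk2KO against 159, 232 and 243 CPM in Tyk2wt tumors. Tyk2wt replicate 1 was the lowest of the 6 and the other Tyk2wt libraries the highest, so the groups overlap, and the change was -0.25 (SE 0.14, adjusted p = 0.352). Without that library the change was -0.41 and passed (adjusted p = 0.0282).

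On the necroptosis side, Casp8, which cuts RIPK1 and RIPK3 and also starts apoptosis, had 145, 132 and 147 CPM in Tyk2KO against 174, 172 and 177 CPM in Tyk2wt tumors. The groups did not overlap, and the Tyk2wt libraries lay within 5 CPM of each other. The change of -0.30 just passed (SE 0.064, adjusted p = 0.049) and was lost in 10 of 14 other settings. These included upper quartile scaling (adjusted p = 0.0525), limma voom (0.0512), a single fit of all 17 libraries (0.0931) and the replicate block (0.0972). With any 1 of the 6 libraries left out it did not pass, at adjusted p = 0.119, 0.186 and 0.0687 without Tyk2KO replicate 1, 2 or 3 and 0.0747, 0.0516 and 0.179 without Tyk2wt replicate 1, 2 or 3, and the change stayed between -0.33 and -0.25.

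Ripk1, the kinase that carries signals of TNF and other death receptors, had 63.2, 67.6 and 66.3 CPM in Tyk2KO and 65.0, 70.5 and 71.1 CPM in Tyk2wt tumors. These overlap, and the change was -0.07 (SE 0.061, adjusted p = 0.509). Ripk3, the kinase that activates MLKL, had 37.3, 49.9 and 47.3 CPM in Tyk2KO and 51.0, 49.7 and 60.3 CPM in Tyk2wt tumors. Tyk2KO replicate 2 reached the lowest Tyk2wt library, and the change of -0.27 did not pass (SE 0.12, adjusted p = 0.235).

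Mlkl, which breaks the plasma membrane at the end of necroptosis, had 26.0, 29.1 and 28.5 CPM in Tyk2KO against 40.6, 43.2 and 51.0 CPM in Tyk2wt tumors. The groups were apart and the Tyk2KO libraries lay close together. The log2 fold change was -0.69 (SE 0.098, adjusted p = 0.0139), which leaves 0.618 of the level in Tyk2wt tumors. The call held under 13 of 14 other settings, and without Tyk2KO replicate 2 the change was -0.72 with an adjusted p of 0.0566.

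**Figure D2:**
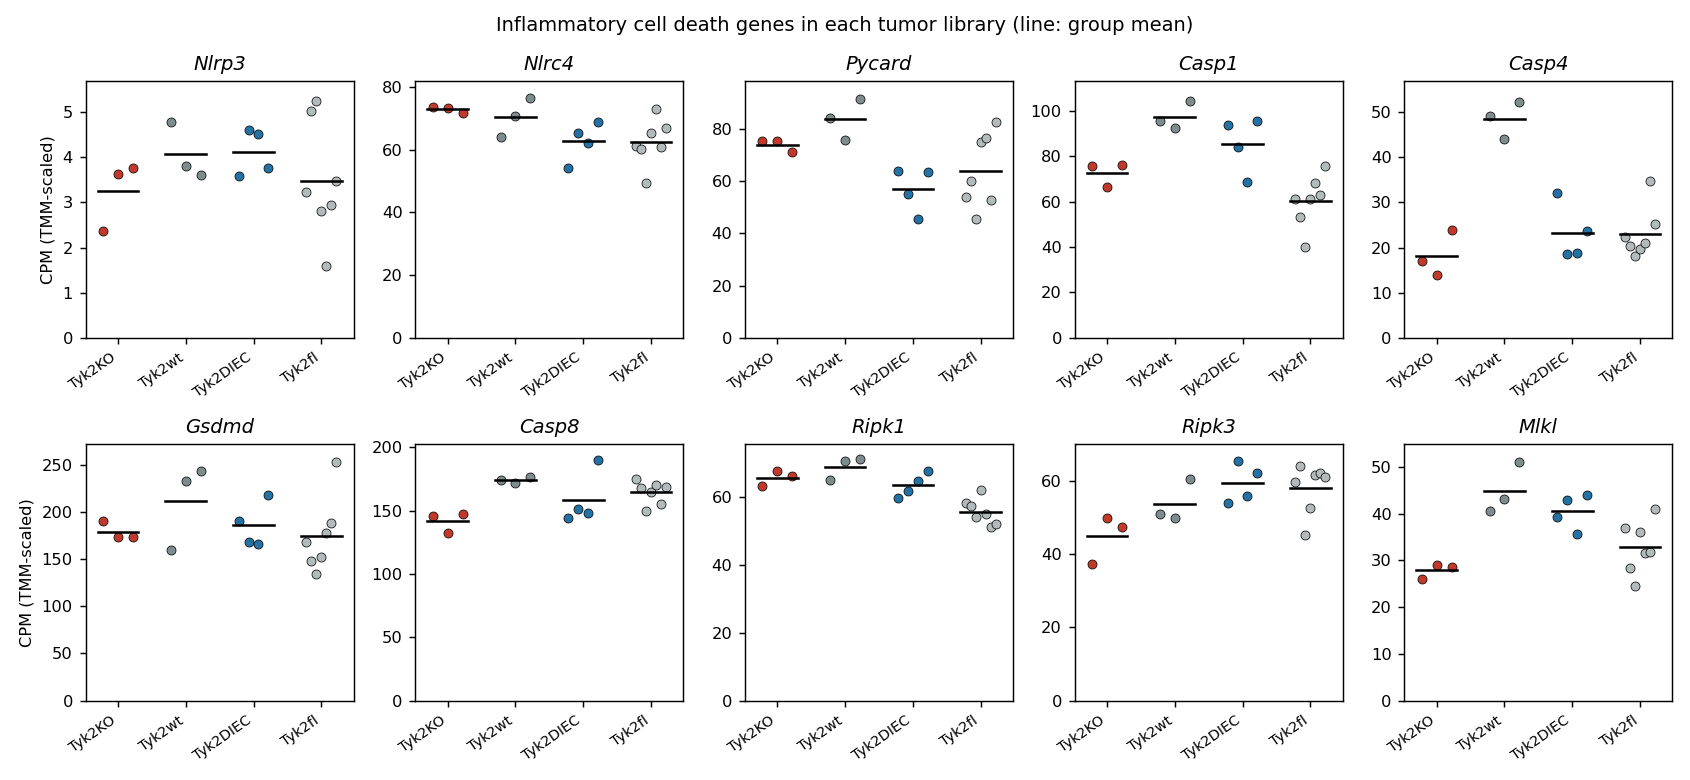
CPM after joint TMM scaling (y axis, from 0, a scale of its own in each panel) of the 10 genes in each library (points) of Tyk2KO, Tyk2wt, Tyk2DIEC and Tyk2fl tumors, with the group mean as a line. Casp4 lies at 13.9 to 23.8 CPM in Tyk2KO and 44.0 to 52.2 CPM in Tyk2wt tumors, and Mlkl at 26.0 to 29.1 CPM in Tyk2KO and 40.6 to 51.0 CPM in Tyk2wt tumors.

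Several cell type markers moved in the same libraries. Of 8 smooth muscle markers 6 were lower in Tyk2KO tumors, with a summed level of 130.8 to 202 CPM against 264 to 449 CPM in Tyk2wt tumors. Of 6 T cell markers 3 were lower (9.38 to 11.5 CPM in Tyk2KO, 19.1 to 25.7 CPM in Tyk2wt). All 3 cytotoxic lymphocyte markers that could be tested, of 8 listed, were lower (2.33 to 3.06 CPM in Tyk2KO, 8.01 to 13.1 CPM in Tyk2wt). The neutrophil markers S100a8 and S100a9 were lower, of 7 tested, with 127 to 140.5 CPM in Tyk2KO and 183 to 235 CPM in Tyk2wt tumors over the list. None of 11 macrophage and monocyte markers passed (541 to 701 CPM in Tyk2KO, 604 to 929 CPM in Tyk2wt), nor any of 8 epithelial markers, 8 fibroblast markers (1088 to 1947 CPM in Tyk2KO, 1166 to 1580 CPM in Tyk2wt) or the 3 B and plasma cell markers tested of 6 (485 to 594 CPM in Tyk2KO, 623 to 714 CPM in Tyk2wt). No marker of these lists was at 0 in a whole group, and the part of these cells in the levels of Casp1, Casp4, Casp8 and Mlkl was not tested.

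Casp1 and Casp4 are neighbours on chromosome 9 of GRCm38, at chr9:5298517-5307265 and chr9:5308828-5336783, both on the plus strand. The next gene on that strand is Casp12 (chr9:5345430-5373032), a related caspase of the inflammatory family. Casp12 was also lower in Tyk2KO tumors, with a log2 fold change of -1.16 (SE 0.17, adjusted p = 0.0147) and 11.97 to 18.4 CPM in Tyk2KO against 30.2 to 40.0 CPM in Tyk2wt libraries. Mlkl lies at chr8:111311797-111338177 on the minus strand.

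Casp1, Casp4 and Mlkl are the 3 genes whose changes differed between the germline and the epithelial deletion, and the 250 bases before their starts are shown for that reason, from RefSeq on GRCm38.p6 and read 5′ to 3′ on the gene's strand (chr9:5298267-5298516 for Casp1, chr9:5308599-5308848 for the first of a pair of Casp4 windows, chr8:111338206-111338455 for Mlkl).
Casp1: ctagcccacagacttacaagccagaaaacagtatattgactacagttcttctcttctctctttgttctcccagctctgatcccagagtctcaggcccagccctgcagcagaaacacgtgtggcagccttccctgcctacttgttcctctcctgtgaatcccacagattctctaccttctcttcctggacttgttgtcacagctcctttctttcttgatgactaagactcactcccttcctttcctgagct
Casp4: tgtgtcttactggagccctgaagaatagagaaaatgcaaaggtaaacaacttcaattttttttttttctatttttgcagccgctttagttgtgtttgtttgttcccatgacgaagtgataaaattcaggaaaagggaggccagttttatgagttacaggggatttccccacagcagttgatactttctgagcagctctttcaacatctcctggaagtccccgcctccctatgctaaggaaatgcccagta
Mlkl: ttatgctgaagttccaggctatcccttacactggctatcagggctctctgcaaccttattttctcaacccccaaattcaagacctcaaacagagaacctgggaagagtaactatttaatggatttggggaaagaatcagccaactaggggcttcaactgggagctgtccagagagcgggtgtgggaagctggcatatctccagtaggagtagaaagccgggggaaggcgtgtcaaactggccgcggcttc
Such windows were given for 9 of the 10 genes. Both strands were searched for TTCNNNGAA, the GAS motif of interferon-activated promoters, and for GAAA, any 2 bases and GAAA, the ISRE motif of the ISGF3 complex and IRF proteins. No letters are in capitals above because neither motif occurs in these windows. In the windows of the 9 genes only 1 of Ripk1 held a match, TTCCCGGAA, at 108 and at 11 bases before the start. Of 32851 windows of this length, 7.02% held the GAS motif and 2.98% the ISRE motif, and the absence of a match says only that these letters are not in this window.

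In Tyk2DIEC tumors 1 of the 10 genes, Casp1, was higher than in Tyk2fl tumors and none was lower, where 19.9% of 17668 genes tested were called, 10.2% as higher and 9.71% as lower. Casp1 did not reach 2-fold, as 3.12% of all genes did. The share among the 10 is thus below that over all genes. The median log2 fold change of the 10 was 0.06, beside -0.003 over all genes tested. Casp4, the gene that changed most with the germline deletion, averaged 23.3 ± 6.29 CPM in Tyk2DIEC and 23.1 ± 5.63 CPM in Tyk2fl tumors (SD, n = 4 and 7).

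Casp1 had 93.7, 83.9, 68.8 and 95.4 CPM in Tyk2DIEC tumors, against 39.9, 61.2 and 75.6 CPM as the lowest, median and highest of 7 Tyk2fl tumors. Only Tyk2DIEC replicate 3 lay inside the range of the controls. The log2 fold change was 0.50 (SE 0.14, adjusted p = 0.0281). It did not pass without Tyk2DIEC replicate 1, 2 or 4 (adjusted p = 0.0779, 0.0758 and 0.0917) or without Tyk2fl replicate 2 (0.0572), and against Tyk2fl replicates 4 to 7 alone, the controls with little Xist, it was 0.34 with an adjusted p of 0.0518.

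Casp4 had 32.0, 18.6, 18.8 and 23.7 CPM in Tyk2DIEC tumors, against 18.2, 21.1 and 34.8 CPM (lowest, median, highest) in Tyk2fl tumors. The Tyk2DIEC values lie inside the range of the controls, and the change was 0.01 (SE 0.19, adjusted p = 0.970). Its neighbour Casp12 rose, by 0.49 on the log2 scale (SE 0.12, adjusted p = 0.0166), to 22.2 to 27.3 CPM in Tyk2DIEC, against 14.0 to 21.97 CPM in Tyk2fl tumors, without overlap.

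Mlkl had 39.3, 43.0, 35.6 and 44.0 CPM in Tyk2DIEC and 24.6, 31.8 and 41.0 CPM (lowest, median, highest) in Tyk2fl tumors. The ranges overlap, and the change of 0.30 did not pass (SE 0.12, adjusted p = 0.107), while without Tyk2fl replicate 7, the highest control, it was 0.36 and passed (adjusted p = 0.0412). Ripk1 had 59.7, 61.8, 64.7 and 67.7 CPM in Tyk2DIEC and 51.1, 55.0 and 62.1 CPM (lowest, median, highest) in Tyk2fl tumors. Its change of 0.19 was just over the threshold (SE 0.064, adjusted p = 0.0527) and passed without Tyk2fl replicate 1 or 4 (adjusted p = 0.0490 and 0.0315), with DESeq2 (0.0326), with a stricter low-count filter (0.0419) and in a single fit of all 17 libraries (0.0230).

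The other 6 genes gave overlapping values. Casp8 had 144, 151, 148 and 190.2 CPM in Tyk2DIEC and 150.0, 167.9 and 175 CPM (lowest, median, highest) in Tyk2fl tumors. Tyk2DIEC replicate 4 stood above all controls and the other 3 near or below the lowest of them, and the change was -0.05 (adjusted p = 0.659). Gsdmd had 190.3, 169, 166 and 218 CPM in Tyk2DIEC and 134, 168 and 253 CPM in Tyk2fl tumors, a change of 0.09 (adjusted p = 0.718). Ripk3 had 53.9, 65.3, 55.9 and 62.1 CPM in Tyk2DIEC and 45.1, 60.9 and 63.9 CPM in Tyk2fl tumors, a change of 0.03 (adjusted p = 0.836). Casp8, Gsdmd and Ripk3 thus differed by less than the spread between libraries.

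The same held for the sensors and the adaptor. Pycard had 63.7, 55.0, 45.3 and 63.2 CPM in Tyk2DIEC and 45.5, 60.0 and 82.6 CPM (lowest, median, highest) in Tyk2fl tumors, a change of -0.16 (adjusted p = 0.506). Nlrp3 had 3.59, 4.60, 4.53 and 3.76 CPM in Tyk2DIEC and 1.59, 3.23 and 5.24 CPM in Tyk2fl tumors, a change of 0.25 (adjusted p = 0.554). Nlrc4 had 54.0, 65.5, 62.2 and 69.0 CPM in Tyk2DIEC and 49.4, 61.3 and 73.1 CPM in Tyk2fl tumors, a change of 0.01 (adjusted p = 0.967). In this experiment 5 of 8 fibroblast markers were lower (1284 to 1607 CPM summed in Tyk2DIEC, 1329 to 2202 CPM in Tyk2fl), as were 2 of 11 macrophage markers (C1qa and C1qc, with 536 to 799 CPM over the list in Tyk2DIEC and 617 to 1135 CPM in Tyk2fl), while none of the smooth muscle, neutrophil, lymphocyte, B and plasma cell or epithelial markers passed. The part of these cells in the level of Casp1 was not tested.

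The changes in both experiments were compared as 1 contrast over all 17 libraries, the change from germline deletion minus the change from epithelial deletion. It was called as below 0 for Casp4, Mlkl and Casp1, 3 of the 10 genes, where 7.96% of 17252 genes tested were called, 5.23% as below and 2.73% as above 0, and only the difference of Casp4 exceeded 2-fold, as did 2.61% of all genes. For Casp4 the difference was -1.43 on the log2 scale (SE 0.31, adjusted p = 0.00967), as the gene was lower in Tyk2KO tumors and at the control level in Tyk2DIEC tumors. For Mlkl it was -0.99 (SE 0.19, adjusted p = 0.00452), with changes of -0.69 in Tyk2KO and 0.30 in Tyk2DIEC tumors, of which the second had not passed. For Casp1 it was -0.92 (SE 0.21, adjusted p = 0.0143), and Casp1 alone of the 10 was called in both experiments, lower in Tyk2KO and higher in Tyk2DIEC tumors. Apart from the 2-fold minimum, which Mlkl did not reach, Casp4 and Mlkl passed under all 23 other settings, whereas Casp1 did not pass without Tyk2KO replicate 2 (-0.84, adjusted p = 0.0597) or without Tyk2wt replicate 3 (-0.85, adjusted p = 0.0530).

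For the other 7 genes no difference between the changes was detected. It was -0.24 for Casp8 (SE 0.11, adjusted p = 0.203), -0.26 for Ripk1 (SE 0.094, adjusted p = 0.105) and -0.29 for Ripk3 (SE 0.16, adjusted p = 0.298). Casp8 was called in the germline experiment alone, and its changes in the 2 experiments were not shown to differ. The difference was -0.33 for Gsdmd (adjusted p = 0.442), -0.02 for Pycard (adjusted p = 0.978), -0.57 for Nlrp3 (adjusted p = 0.431) and 0.04 for Nlrc4 (adjusted p = 0.891). The SE of 0.41 for Nlrp3, the gene with the fewest counts, is the widest of the 10. In the same contrast all 5 cytotoxic lymphocyte markers tested were called as below 0 and 3 of 8 fibroblast markers (Col1a1, Col1a2 and Lum) as above 0, and their part in the differences of Casp1, Casp4 and Mlkl was not tested.

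**Figure D3:**
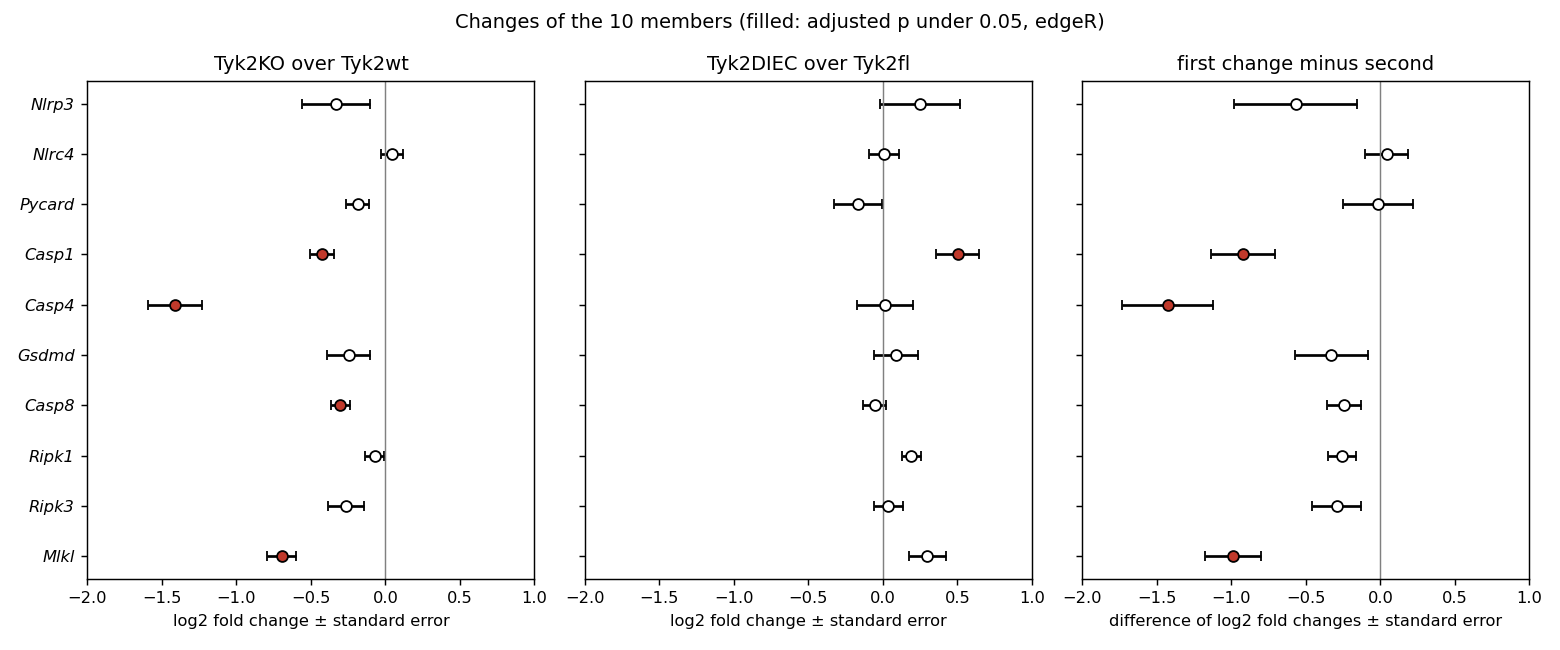
Log2 fold changes ± SE of the 10 genes in Tyk2KO over Tyk2wt tumors (left), in Tyk2DIEC over Tyk2fl tumors (middle), and the first change minus the second (right), with filled points at an adjusted p under 0.05 from edgeR. Casp4, Mlkl, Casp1 and Casp8 are filled on the left, Casp1 in the middle, and Casp1, Casp4 and Mlkl on the right.

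The control groups themselves were not at one level. In Tyk2wt tumors 4 of the 10 genes were higher than in Tyk2fl tumors and none was lower, where 12.9% of 17252 genes were called, 7.37% as higher and 5.49% as lower. Of the 4, Casp4 exceeded 2-fold, as 2.35% of all genes did. Both groups have intact Tyk2, and genotype, depth and experiment cannot be told apart between them. The groups also differ in Xist, which was high in Tyk2fl replicates 1 to 3 alone. Casp4 was 1.07 higher on the log2 scale in Tyk2wt tumors (SE 0.19, adjusted p = 0.00347), at 44.0 to 52.2 CPM against 18.2 to 34.8 CPM in Tyk2fl tumors. The Casp4 levels of Tyk2KO tumors, 13.9 to 23.8 CPM, thus reach into the range of the Tyk2fl controls.

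Casp1 was 0.69 higher in Tyk2wt than in Tyk2fl tumors (SE 0.14, adjusted p = 0.00572), and its 66.5 to 76.2 CPM in Tyk2KO tumors lie around the upper end of the 39.9 to 75.6 CPM in Tyk2fl tumors. Mlkl was 0.45 higher in Tyk2wt tumors (SE 0.12, adjusted p = 0.0262), with 26.0 to 29.1 CPM in Tyk2KO tumors inside the 24.6 to 41.0 CPM of Tyk2fl tumors. Ripk1 was 0.31 higher (SE 0.062, adjusted p = 0.00606), at 65.0 to 71.1 CPM in Tyk2wt against 51.1 to 62.1 CPM in Tyk2fl tumors. Without Tyk2wt replicate 3 Casp4 alone was called (adjusted p = 0.0584 for Casp1, 0.216 for Mlkl and 0.0720 for Ripk1), and Mlkl did not pass without Tyk2wt replicate 2 (0.0686) or Tyk2fl replicate 6 (0.0538) either, nor against Tyk2fl replicates 4 to 7 alone (0.0560). Pycard, at 0.39 with an adjusted p of 0.102, passed without Tyk2fl replicate 7 (0.0404). Of the genes around them in the pathways, Casp12 (0.96, adjusted p = 0.00108), Zbp1 (1.36, adjusted p = 0.00118) and Il18bp (1.00, adjusted p = 0.00212) were also higher in Tyk2wt than in Tyk2fl tumors, as were 4 of 5 cytotoxic lymphocyte markers, whose part was not tested.

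Of the other genes of these pathways, Zbp1 was the only input to necroptosis called in both experiments. Among 14 tested inputs to necroptosis and death receptors, 3 were lower in Tyk2KO tumors and none higher. Of all genes 2.13% were called as lower and 0.668% as higher there, and the Tyk2KO counts of the lists below have the same background. Zbp1, which senses Z-form nucleic acids and activates RIPK3, had 21.4 to 27.8 CPM in Tyk2KO against 68.9 to 119 CPM in Tyk2wt tumors, a log2 fold change of -1.93 (SE 0.20, adjusted p = 0.00303). Tlr3, a receptor for double-stranded RNA, changed by -0.43 (adjusted p = 0.0265) and the death receptor Fas by -0.72 (adjusted p = 0.0481). The median of the list was 0.03, near that of all genes.

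In Tyk2DIEC tumors 4 of the same 14 genes were higher and none lower, where 10.2% of all genes were called as higher and 9.71% as lower, and the counts of the lists below are to be read against these shares. Zbp1 had 59.3 to 81.4 CPM in Tyk2DIEC against 24.6 to 46.1 CPM in Tyk2fl tumors, a change of 0.93 (SE 0.19, adjusted p = 0.00745). Tnfsf10, the death ligand TRAIL, changed by 0.97 (adjusted p = 0.00987), Adar, which edits double-stranded RNA and is known to restrain ZBP1, by 0.40 (adjusted p = 0.0141) and Spata2, a partner of the deubiquitinase CYLD, by 0.22 (adjusted p = 0.0418). The difference between both changes was -2.86 for Zbp1 (SE 0.33, adjusted p = 8.1e-05), -0.59 for Tlr3 (adjusted p = 0.00723), -0.68 for Adar (adjusted p = 0.00819) and -1.67 for Tnfsf10 (adjusted p = 0.00854), and Fas was the fifth called (-0.82, adjusted p = 0.0321). Zbp1 was thus called in both experiments with opposite signs, like Casp1.

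Among 9 cytokines of the inflammasome and their receptors, 2 were lower in Tyk2KO tumors. All 9 had an unadjusted p under 0.05, 3 of them with a positive change, and the median of the list was -0.78. The largest of these p-values, 0.0497 (edgeR), ranked only 3675 among 16179 genes tested, so many other genes passed that mark too. Il18bp, the secreted inhibitor of IL-18, had 4.42 to 5.18 CPM in Tyk2KO against 9.20 to 18.1 CPM in Tyk2wt tumors, a change of -1.46 (SE 0.24, adjusted p = 0.0243), and Il18rap, a chain of the IL-18 receptor, changed by -0.92 (adjusted p = 0.0367). The cytokines themselves, named after their values were seen, did not pass: Il1b changed by -0.69 (adjusted p = 0.0596), Il1a by -0.79 (adjusted p = 0.0587) and Il18 by 0.35 (adjusted p = 0.0658). In Tyk2DIEC tumors Il18bp alone of the 9 was called, at 9.49 to 10.9 CPM against 5.36 to 7.90 CPM in Tyk2fl tumors and a change of 0.63 (SE 0.13, adjusted p = 0.0069). Its difference between both changes was -2.08 (SE 0.26, adjusted p = 0.000156), and that of Il18rap -1.13 (adjusted p = 0.0351).

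Of 8 genes that license or restrain inflammasomes, Trim30a, an inhibitor of NLRP3 in mice, was lower in Tyk2KO tumors together with Casp12, at 4.17 to 4.95 CPM in Tyk2KO against 12.4 to 23.6 CPM in Tyk2wt tumors (-1.96, SE 0.23, adjusted p = 0.00645). Casp12 was the only one of the 8 called in Tyk2DIEC tumors. The difference between both changes was -2.48 for Trim30a (adjusted p = 0.000212) and -1.65 for Casp12 (adjusted p = 0.000266). None of the 11 other inflammasome sensors tested was called in Tyk2KO tumors, also none at an unadjusted p under 0.05, and Naip2 (0.49, adjusted p = 0.0128) and Naip6 (0.67, adjusted p = 0.0105), partners of NLRC4, were higher among 12 in Tyk2DIEC tumors. The Naip genes are close copies of each other, so their counts are uncertain. Naip6 alone of these 12 differed between both changes (-0.84, adjusted p = 0.0494).

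The remaining lists changed little in Tyk2KO tumors. None of 7 tested gasdermins and rupture genes, 13 ubiquitin editors of RIPK1 or 11 apoptosis effectors was called by edgeR, with 0, 4 and 2 of them at an unadjusted p under 0.05. Such unadjusted p-values were frequent over all genes, as given above for the cytokines. In Tyk2DIEC tumors Ninj1, which ruptures the membrane after pore formation, was lower (-0.28, adjusted p = 0.0493). Of the ubiquitin editors 4 were higher and none lower: the kinase gene Tbk1 (0.28, adjusted p = 0.00775), whose product restrains RIPK1, the deubiquitinase gene Cyld (0.30, adjusted p = 0.00949), and Ikbkg (0.21, adjusted p = 0.0312) and Rnf31 (0.29, adjusted p = 0.0397), which act in the linear ubiquitin and NF-κB branch. Apaf1, the scaffold of the apoptosome, was higher (0.42, adjusted p = 0.0236) and the executioner caspase Casp6 lower (-0.20, adjusted p = 0.0279). The difference between both changes was called for Cyld (-0.56, adjusted p = 0.00239), Xiap (-0.56, adjusted p = 0.0174) and Tbk1 (-0.34, adjusted p = 0.0380), and for Casp6 in the other direction (0.36, adjusted p = 0.0342).

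Of 13 genes of the interferon response, 11 were lower in Tyk2KO tumors and none higher, with a median of -1.54 beside 0.004 over all genes. In Tyk2DIEC tumors 9 were higher and none lower, with a median of 0.62 beside -0.003. The control groups differed in the same list, with 9 genes higher and none lower in Tyk2wt than in Tyk2fl tumors. The median there was 0.99 beside 0.0006 over all genes, of which 7.37% were called as higher. Irgm1 changed by -1.79 (adjusted p = 0.000913) and Irf9 by -0.73 (adjusted p = 0.002) in Tyk2KO tumors. Irgb10, a GTPase that attacks bacterial membranes and is known to expose lipopolysaccharide to caspase-11 in mouse macrophages, changed by -3.72 (adjusted p = 0.00265). In Tyk2DIEC tumors Gbp3 (1.21, adjusted p = 0.00632), Irgm1 (0.94, adjusted p = 0.0076), Irgb10 (1.79, adjusted p = 0.0123) and Gbp2 (1.59, adjusted p = 0.0126) were called with the smallest adjusted p of the list. These genes were known to change from earlier results of the same libraries, and their part in the levels of the 10 was not tested.

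**Figure D4:**
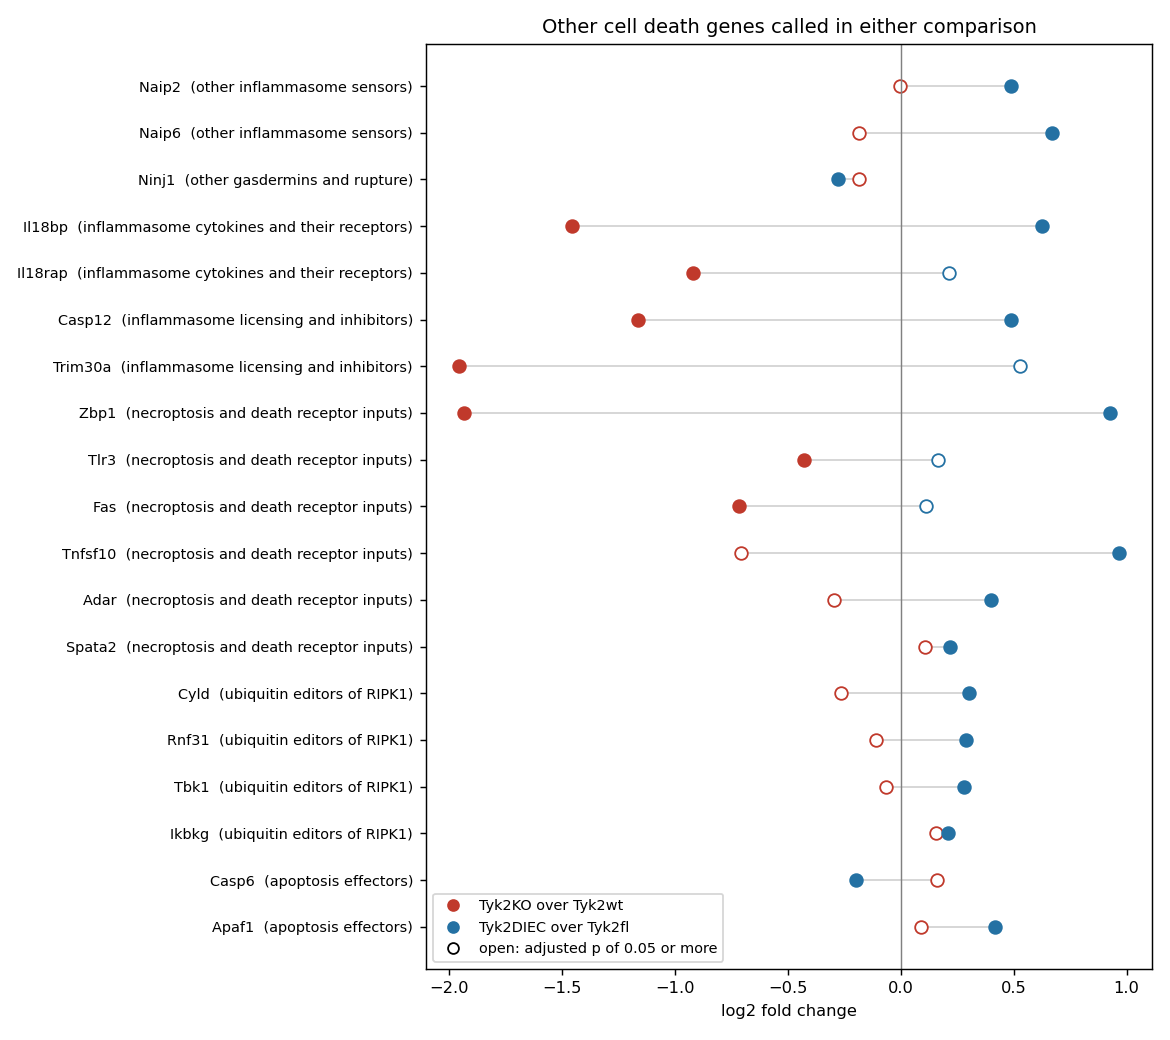
Log2 fold changes (x axis) in Tyk2KO over Tyk2wt (red) and Tyk2DIEC over Tyk2fl tumors (blue) of the other cell death genes called in either experiment, one gene per row with its list in brackets, with open points at an adjusted p of 0.05 or more. Zbp1 (-1.93 and 0.93), Il18bp (-1.46 and 0.63) and Casp12 (-1.16 and 0.49) are filled in both colors.

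For the 3 genes with the largest change in either experiment, the genes with the most similar profile were sought among 17242 others as those with the smallest root mean square difference of centred log2 CPM over the 17 libraries. For Casp4, whose own SD was 0.54, they were Slc28a2 (0.23), Ikzf1 (0.27) and Cass4 (0.30). For Mlkl, with an SD of 0.29, they were Tapbpl (0.12), H2-T23 (0.13) and Irf1 (0.13). For Casp1, with an SD of 0.35, they were Mgam (0.18), Tmem150b (0.18) and Plgrkt (0.19). The libraries share their experiment and depth within a group, so these are descriptions of likeness only.

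Exons of 2 of the 10 genes overlap other genes. Pycard (chr7:127989708-127993867) shares 485 exon bases with Gm45205 on the opposite strand. Ripk1 (chr13:34002363-34037147) shares 511 with Gm17084 on its own strand and 241 with Serpinb6a on the opposite strand. Which strand was counted is not given in the sources used here, so reads on these stretches cannot be told apart. No exon overlap was found for Casp1, Casp4, Casp8 (chr1:58795374-58847503), Gsdmd (chr15:75862327-75867408), Mlkl, Nlrc4 (chr17:74425438-74459142), Nlrp3 (chr11:59541568-59566956) or Ripk3 (chr14:55784995-55788865).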

How the data were processed

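Poly(A) RNA of 17 tumors was made into directional libraries and read from one end by the authors, who aligned the reads with STAR 2.6.1a (GRCm38 in the submitters' notes, Gencode mouse release 23) and deposited raw counts per gene, neither filtered nor normalized. The 17 single-sample tables were identical to the columns of the 2 experiment tables. Of 55421 identifiers, 55240 matched GENCODE release 21, which gave symbols, positions and exon lengths. Depth ranged from 19129696 to 35427965 counts.

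Groups follow the genotype in each label. For each experiment low-count genes were dropped by filterByExpr (at least 10 counts, 15 in total), libraries were scaled with TMM, and genotypes were compared by the quasi-likelihood F test of edgeR 4.0.16 in R 4.3.3, two-sided, with Benjamini-Hochberg adjustment over all genes tested and calls at adjusted p under 0.05. SEs were derived from the fold change and F. Both contrasts across experiments used all 17 libraries. Steps were tested on simulated data. Numbered libraries showed no shared deviations (correlations of same-numbered pairs -0.389 to 0.0777), and no pair looked like copies of 1 library. Alternatives were DESeq2 1.42.0, limma 3.58.1 (voom), other scalings and filters, a 2-fold minimum, 1 fit of all libraries, a replicate block, thinned or fewer Tyk2fl libraries, and leaving out each library.

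All 10 genes are named. Of 8 other pathway lists and 8 marker lists counts are given, with up to 4 called genes of each pathway list and comparison with the smallest adjusted p, and 3 genes of most similar profile for each of 3 members. One gene that this rule would name is not reported here. Members and lists were chosen with earlier results of these data known. Promoter windows are from RefSeq. Figures were drawn with matplotlib 3.10.9.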

Additional observations from a re-analysis of the deposited data

Results flagged for a closer look

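Casp4 was higher in Tyk2fl replicate 6 than in the other Tyk2fl tumors, at 34.77 CPM against 18.2 to 25.3 CPM in the other 6. Casp8 stood apart in Tyk2DIEC replicate 4, at 190.2 CPM against 144 to 151 CPM in the other 3. Of 20 sets of 1 gene in 1 group of 4 or more libraries, these 2 had an extreme library by Dixon's criterion, and chance flags about 1 in 20. Both only just passed, with a ratio of 0.572 against a critical value of 0.568 for Casp4 and 0.852 against 0.829 for Casp8. Without Tyk2fl replicate 6 or Tyk2DIEC replicate 4 neither gene was called between Tyk2DIEC and Tyk2fl tumors.

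For 3 genes the change in Tyk2KO over Tyk2wt tumors differed from that in Tyk2DIEC over Tyk2fl tumors by the test of the difference over all 17 libraries (edgeR). The difference was -1.43 on the log2 scale for Casp4 (adjusted p = 0.00967), -0.99 for Mlkl (adjusted p = 0.00452) and -0.92 for Casp1 (adjusted p = 0.0143). In the germline experiment all 3 were lower in each of 3 Tyk2KO libraries than in each of 3 Tyk2wt libraries. These are the same values that gave the calls, and the share of all genes separated in this way was not counted. Experiment, depth and control group differ along with the kind of deletion and cannot be told apart from it. Tyk2fl replicates 1 to 3 also differ from all other libraries in their high Xist.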

How the results depend on the processing

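Over 40 gene results (10 genes in 4 comparisons) and their alternatives, 735 of 810 values kept direction and side of the threshold, 30 lost and 8 gained the call, and 37 changed sign, each of these with a value of at most 0.187 and an adjusted p of at least 0.454. Of the 10 genes, 4 were called in Tyk2KO over Tyk2wt tumors, 1 with a 2-fold minimum, 2 in a single fit of all libraries and 1 to 3 with a library left out. In Tyk2DIEC over Tyk2fl tumors 1 was called, 2 with DESeq2, a stricter filter or a single fit, 0 with a 2-fold minimum or against Tyk2fl replicates 4 to 7 alone, and 0 to 2 with a library left out. Of the 3 differences between changes 1 passed a 2-fold minimum, and 2 to 3 passed with a library left out. Of the 4 genes higher in Tyk2wt than in Tyk2fl tumors 1 passed a 2-fold minimum, and 1 to 5 passed with a library left out. The causes were not tested.

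Changes of sign in Tyk2DIEC over Tyk2fl tumors were -0.016 for Casp4 and -0.026 for Nlrc4 (upper quartile scaling), -0.013 and -0.020 (no filter), -0.0061 for Nlrc4 (thinned controls), and -0.13 for Casp4, -0.013 for Ripk3, -0.070 for Gsdmd and -0.10 for Nlrc4 (Tyk2fl replicates 4 to 7 alone). For the difference of Pycard they were 0.033, 0.021 and 0.18 (upper quartile scaling, no filter, Tyk2fl replicates 4 to 7). With a library left out, Nlrc4 ranged from -0.017 to 0.11 in Tyk2KO over Tyk2wt tumors. In Tyk2DIEC over Tyk2fl tumors Casp4 ranged from -0.19 to 0.13, Ripk3 from -0.031 to 0.068, Gsdmd from -0.0093 to 0.20 and Nlrc4 from -0.053 to 0.062. The difference ranged from -0.092 to 0.070 for Pycard and from -0.0053 to 0.13 for Nlrc4.

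Same-numbered libraries share only a number. With the replicate block 246 of all genes were called in Tyk2KO over Tyk2wt tumors, against 453 without it, and 3 of the 10 (not Casp8), and in Tyk2DIEC over Tyk2fl tumors 1181 against 3515, with 1 of the 10. Nlrp3, at 51 to 175 counts, limits what could be detected for it, and 3 libraries a group limit the germline experiment.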
